A study of Mus musculus with 6 samples.

Results

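Transcripts of 76 genes of aldehyde and xenobiotic detoxification were followed among the 21936 genes of the deposited count table. They were taken by name and comprise 22 cytosolic and kappa-class glutathione transferase genes (Gst), 21 aldehyde dehydrogenase genes (Aldh), 16 aldo-keto reductase genes (Akr1), 9 Ugt1a genes and 8 cytochrome P450 genes whose names begin with Cyp1. PAM212 is an established mouse cell line, and the culture medium of both groups was DMEM with 10% FBS. The 3 overexpression libraries came from PAM212 cells infected with a lentivirus that carried the mouse miR-28-3p gene, and the 3 control libraries, titled NC, came from PAM212 cells labelled as not treated. The labels call the cells keratinocytes, while one line of the design text speaks of melanocytes. The labels used here do not say whether the control cells carried an empty lentivirus, whether the infected cells were one clone or a pool, or whether a group's libraries came from separate cultures. The p-values therefore measure the spread between these libraries, which may be technical. The design asks what polyadenylated RNA differs when this microRNA is overexpressed.

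A microRNA is a short RNA that pairs through its seed, bases 2 to 8, with sites in messenger RNAs. The mouse miR-28 hairpin on chromosome 16 yields a 3p and a 5p strand, and both are shown because the 3p strand is the one named as overexpressed, with the seed in capitals (RefSeq, GRCm38.p6, plus strand, 24827908 to 24827929 for 3p and 24827868 to 24827889 for 5p).
mmu-miR-28a-3p: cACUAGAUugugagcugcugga
mmu-miR-28a-5p: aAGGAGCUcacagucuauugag
The level of either strand was not analysed here.

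Detoxification runs in steps. Cytochromes P450 oxidise foreign compounds, aldehyde dehydrogenases and aldo-keto reductases turn reactive aldehydes into acids and alcohols, and glutathione and glucuronosyl transferases attach a soluble group for export. Many of these genes are induced by NRF2, which senses electrophiles, or by the aryl hydrocarbon receptor (AhR), which senses planar aromatic compounds. In surface epithelia such as the epidermis these enzymes clear foreign chemicals and the aldehydes that oxidised lipids release.

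The libraries held 14309898 to 16383374 counted reads with overexpression and 14706283 to 15385151 in the controls. Levels are given in CPM, the share of a library's counted reads in parts per 1000000, scaled by edgeR's TMM factors. Before that scaling 3 counts, the limit a count of 0 allows, equal 0.183 to 0.21 CPM. Such limits and intervals cover counting error alone, because PCR copies of one molecule may be counted more than once. The difference between the groups was large across the table. In edgeR's quasi-likelihood test 10159 of 11809 tested genes, or 86.0%, had a Benjamini-Hochberg adjusted p under 0.05, which is the threshold used throughout, 42.1% higher and 43.9% lower. Fold changes are overexpression over control, and their standard errors (SE) are derived from that test. The label was checked against 13 keratinocyte markers, of which 11 were tested, 4 higher and 7 lower, with summed levels of 3746 to 3758 CPM with overexpression and 4846 to 4893 CPM in the controls. Krt5, the keratin that defines basal keratinocytes, and Dsc3, a desmosomal cadherin, had no count in any library, and Trp63, the master factor of stratified epithelium, averaged 0.11 CPM with overexpression and 1.13 CPM in the controls. Other markers of the list were at higher levels. Krt14 and Itga6 averaged 39.1 and 328 CPM with overexpression and 30.5 and 139 CPM in the controls. Itgb4 and Perp averaged 141 and 152 CPM with overexpression and 197 and 220 CPM in the controls. Krt8, Krt18 and Epcam, which simple epithelia also express, made up most of the marker sums, which therefore say little about the label. They averaged 1088, 1070 and 315 CPM with overexpression and 1238, 1797 and 831 CPM in the controls. Cdh1 and Sfn averaged 532 and 87.8 CPM with overexpression and 382 and 33 CPM in the controls, and Dsg3 0.285 and 2.79 CPM. Summed fibroblast markers stood at 16.2 to 17.1 CPM with overexpression and 43.3 to 52 CPM in the controls, mostly Pdgfra, and summed immune markers at 4.1 to 5.74 CPM with overexpression and 17.1 to 20.6 CPM in the controls, mostly Cd68, with Lum, Cd3e and Adgre1 at 0 throughout. Summed melanocyte markers stood at 7.32 to 8.22 CPM with overexpression and 8.04 to 9.78 CPM in the controls, mostly Mitf, with Tyr at 0 throughout. Tyrp1 had 40 counts with overexpression and 0 in the controls, Dct had 31 with overexpression and 0 in the controls, and Mlana had 9 with overexpression and 3 in the controls, while Pmel averaged 0.845 CPM with overexpression and 1.85 CPM in the controls. The part of these markers in the results below was not tested. In such bulk samples fewer cells of a type and less RNA per cell cannot be told apart.

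Detoxification transcripts were mostly lower with overexpression. Of the 76 genes, 23 had no count in any library, 20 had counts too low for the filter, and 33 were tested. Of the 33 tested, 27 fell (81.8%, against 43.9% of all tested genes), 3 rose (9.09%, against 42.1%; 1 with upper quartile scaling) and 3 did not pass the threshold. The median log2 fold change of the tested members was -1.21, against -0.03 over all tested genes. At least 2-fold falls were called for 20 of the 33 members (60.6%) and for 21.0% of all tested genes. At least 4-fold falls were called for 11 members (33.3%) and for 8.49% of all tested genes. At least a 2-fold rise was called for 1 member (3.03%), Akr1b3, and for 14.8% of all tested genes. In 26 members every overexpression library lay below every control library (78.8%, against 43.8% of all tested genes), and in 3 every one lay above (9.09%, against 42.2%). A gene that passes the filter only through the group where it is high had to differ. This applied to 6 of the members that fell (Akr1c13, Aldh1a1, Gstk1, Gstm4, Gstt1 and Gstt2). They reached the minimum of 0.652 CPM, before TMM scaling, in every control library and not in every overexpression library. All 6 are among the members with at least 2-fold falls. Akr1c13, Gstk1, Gstm4 and Gstt1 are also among those with at least 4-fold falls. The member shares and the member median above include these 6. Among the 26 members past that minimum in all 6 libraries, 21 fell, 3 rose and 2 were not called. No such count was made for all tested genes, whose shares above are over all 11809, whichever group reached the minimum. Against a 1.5-fold minimum 22 of the 33 members were lower (27.0% of all tested genes) and 1 higher (23.4%), without Akr1b8, Aldh18a1, Aldh5a1, Aldh7a1, Gstz1, Aldh9a1 and Gsto1.

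**Figure D1:**
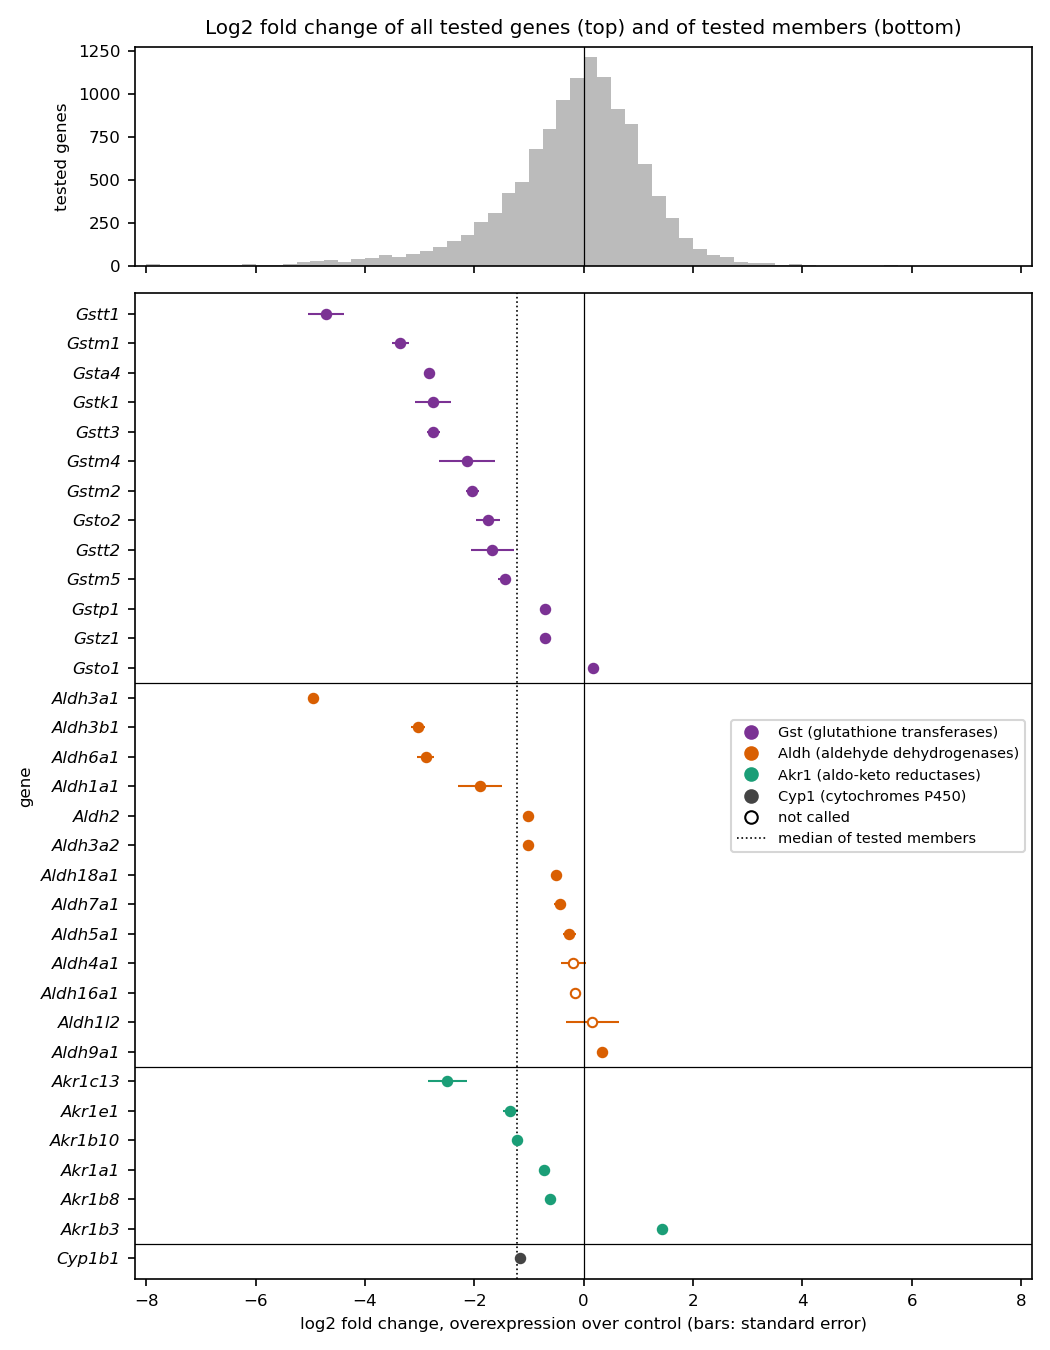
Log2 fold change (overexpression over control) of all 11809 tested genes as a histogram, with values beyond 8 drawn at 8 (top), and of the 33 tested members with their standard errors, sorted within families (bottom). Filled points passed the adjusted p of 0.05, open points did not, and the dotted line marks the members' median of -1.21. Most members lie left of 0, while Akr1b3, Aldh9a1, Gsto1 and Aldh1l2, the last not called, lie right of it. With upper quartile scaling Gsto1 stood at -0.06 and Aldh9a1 was not called.

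Levels of different genes can be set side by side only per length, as FPKM, the authors' count scaled by gene length and by the counted reads of the library. By this measure the most abundant members with overexpression were Akr1a1, Gsto1, Aldh2 and Gstp1, which averaged 109, 62.1, 56.8 and 55.7 FPKM, against 193, 58.8, 123 and 96.7 FPKM in the controls. The summed FPKM of the Gst genes was 142, 139 and 141 with overexpression and 275, 267 and 286 in the controls. That of the Aldh genes was 124, 126 and 122 with overexpression and 276, 282 and 280 in the controls. The Akr1 sum was 181, 180 and 181 with overexpression, against 274, 273 and 285 in the controls. For each of these families the groups lay far apart, and the overexpression sums were 0.509, 0.444 and 0.652 times those of the controls for Gst, Aldh and Akr1. The make-up of each family differed between the groups by more than the spread of the libraries. Gsto1 held 44.2 ± 1.62% of the Gst FPKM with overexpression and 21.3 ± 0.824% in the controls, and Gsta4 held 4.81 ± 0.396% with overexpression and 18.6 ± 0.745% in the controls (SD, n = 3 each). Aldh3a1 held 1.29 ± 0.131% of the Aldh FPKM with overexpression and 18.8 ± 0.826% in the controls, while Aldh9a1 held 17.4 ± 0.866% with overexpression and 6.52 ± 0.441% in the controls. Akr1b3 held 17.5 ± 0.492% of the Akr1 FPKM with overexpression and 4.49 ± 0.138% in the controls.

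**Figure D2:**
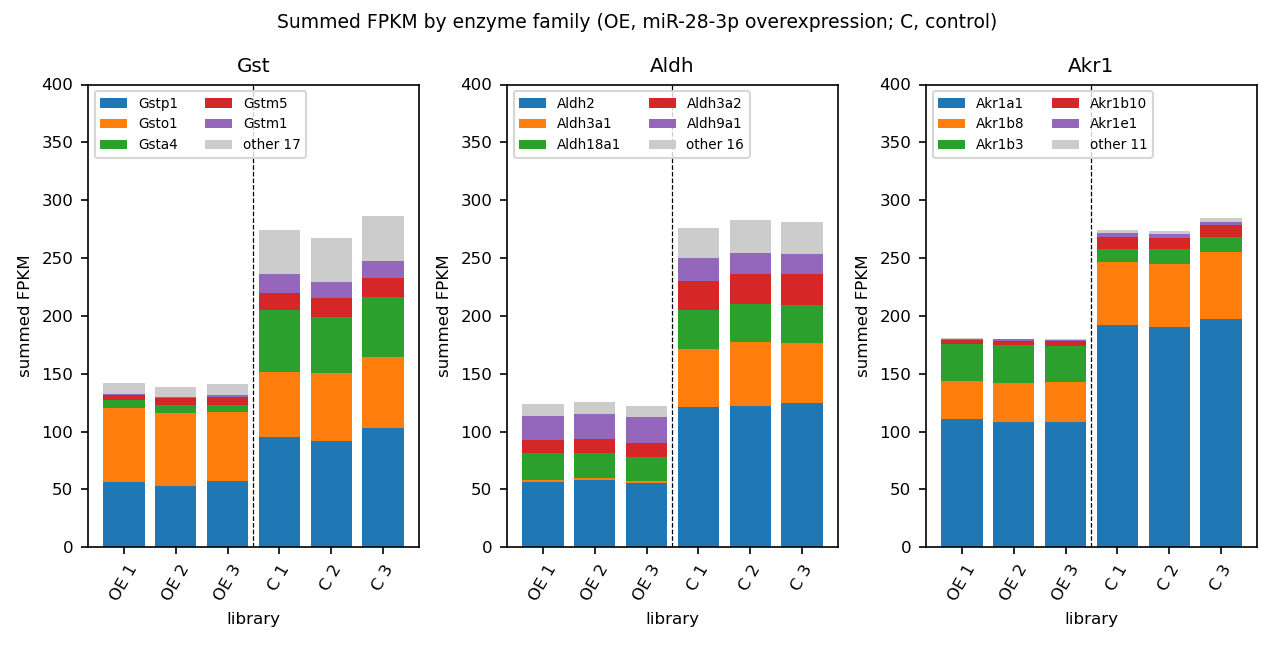
Summed FPKM of the Gst, Aldh and Akr1 genes in each library, overexpression (OE) left and control (C) right, stacked by the 5 members with the highest control mean and all others together. The overexpression bars reach 139 to 142 for Gst against 267 to 286 in the controls, and the Aldh3a1 segment is barely visible in them.

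Among glutathione transferases, which join glutathione to electrophiles, 12 of 13 tested genes fell and 1, Gsto1, rose except with upper quartile scaling, with a median log2 fold change of -2.04. Over all tested genes 43.9% were lower and 42.1% higher. With the length offset described below the Gst median was -1.56. The 12 include Gstk1, Gstm4, Gstt1 and Gstt2, which passed the filter through the controls alone. The mu-class genes lie in one cluster on chromosome 3, and all 4 of its tested genes were lower. Gstm1 (ENSMUSG00000058135, chromosome 3, 108012255 to 108017973) had 2.16, 1.58 and 2.53 CPM with overexpression, against 23.4, 19.6 and 21.3 CPM in the controls. The groups were far apart, and the log2 fold change was -3.35 ± 0.15 (SE, edgeR adjusted p = 1.78e-29). Gstm2 had 5.12, 4.82 and 5.43 CPM with overexpression and 20.9, 22.3 and 20 CPM in the controls, a 4.11-fold fall. Gstm5 had 5.69, 7.19 and 8.27 CPM with overexpression and 18.1, 19.9 and 19.7 CPM in the controls, a 2.71-fold fall. Neither pair of groups overlapped. Gstm4 averaged 0.305 CPM with overexpression and 1.39 CPM in the controls (log2 fold change -2.13, edgeR adjusted p = 0.00013), and without overexpression replicate 3 its log2 fold change was -3.25. Only the controls carried Gstm4 past the filter. The other 3 Gstm genes were not tested. Gstm7 had 0 counts with overexpression and 32 in the controls, so that its level was at least 10.9-fold lower, taking 3 counts summed over the group as the limit of a zero. Gstm6 had 1 count with overexpression and 17 in the controls, a ratio of control to overexpression of 17.4 (95% counting interval 2.72 to 726), and Gstm3 had none.

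Gsta4, the alpha-class enzyme with high activity towards hydroxynonenal from oxidised lipids (ENSMUSG00000032348, chromosome 9, 78182774 to 78209349), had 8.79, 9.5 and 8.21 CPM with overexpression, against 65.4, 59.4 and 64 CPM in the controls. All overexpression libraries were low, and the fall was 7.13-fold (log2 fold change -2.83 ± 0.08, SE, edgeR adjusted p = 9.49e-40). Of the other alpha genes Gsta3 had 2 counts with overexpression and 28 in the controls, a ratio of control to overexpression of 14.3 (95% counting interval 3.61 to 124). Gsta1 had 13 counts with overexpression and 2 in the controls, and Gsta2 had none in any library. Of the stretches of 150 bases, the read length, in Gsta1 transcripts, 68.4% also occur in Gsta2 or in 2 gene models, so its few reads are uncertain.

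The theta genes lie together on chromosome 10. Gstt1 (ENSMUSG00000001663, chromosome 10, 75783813 to 75798584) had 0.0721, 0.594 and 0.126 CPM with overexpression, against 7.22, 6.79 and 7.55 CPM in the controls. It was the transferase with the largest fitted fall, 26.1-fold (log2 fold change -4.71 ± 0.33, SE, edgeR adjusted p = 2.67e-20), on 12 overexpression counts of which 9 came from replicate 2. Without that replicate the log2 fold change was -6.04. Gstt1 passed the filter through the controls alone, so it had to differ. Gstt3 had 4.25, 3.7 and 4.29 CPM with overexpression and 28.5, 25.8 and 28.1 CPM in the controls, a 6.73-fold fall without overlap. In the annotation 13.6% of its exonic bases also belong to the gene model Gm20441 on the same strand. Gstt2 averaged 0.57 CPM with overexpression and 1.85 CPM in the controls (edgeR adjusted p = 0.000112), its log2 fold change of -1.67 becoming -2.30 without overexpression replicate 2. Gstt2 too passed the filter only through the controls. Gstt4 had 1 count with overexpression and 6 in the controls and was not tested.

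The remaining classes differed in size and direction. Gstp1, the pi-class enzyme abundant in many epithelia (ENSMUSG00000060803, chromosome 19, 4035407 to 4037985), had 89.7, 85.2 and 92.1 CPM with overexpression, against 143, 138 and 154 CPM in the controls. The groups did not overlap, and the fall was 1.63-fold (log2 fold change -0.70 ± 0.04, SE, edgeR adjusted p = 1.44e-23). Of its stretches of read length 17.6% recur in Gstp2 or a pseudogene, so reads among these copies are uncertain. Gstp2 had 3 counts with overexpression and 7 in the controls, and Gstp3 none. Gstz1, the maleylacetoacetate isomerase of tyrosine breakdown, had 16.5, 18 and 16.6 CPM with overexpression and 30.5, 25.1 and 27.2 CPM in the controls, a 1.62-fold fall without overlap. Of its exonic bases, 9.14% are also exonic in Pomt2 on the other strand. Gstk1, the mitochondrial and peroxisomal kappa enzyme, had 0.216, 0.528 and 0.884 CPM with overexpression and 3.33, 4.42 and 3.62 CPM in the controls, a 6.72-fold fall. Only the controls carried Gstk1 past the filter.

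The 2 omega genes, which encode thioltransferases that also reduce dehydroascorbate, lie next to each other on chromosome 19 and were called in opposite directions, except with upper quartile scaling, where Gsto1 was not called. Gsto1 (47854970 to 47864790) had 134, 131 and 125 CPM with overexpression, against 109, 115 and 121 CPM in the controls. The groups were close and did not overlap, with a log2 fold change of 0.17 ± 0.04 (SE, edgeR adjusted p = 8.23e-05) that became -0.06 with upper quartile scaling, which moved the median of all genes to -0.26. Gsto2 (47865534 to 47886324) had 2.23, 1.52 and 1.58 CPM with overexpression and 5.59, 5.54 and 6.73 CPM in the controls, a 3.37-fold fall (edgeR adjusted p = 1.4e-10).

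**Figure D3:**
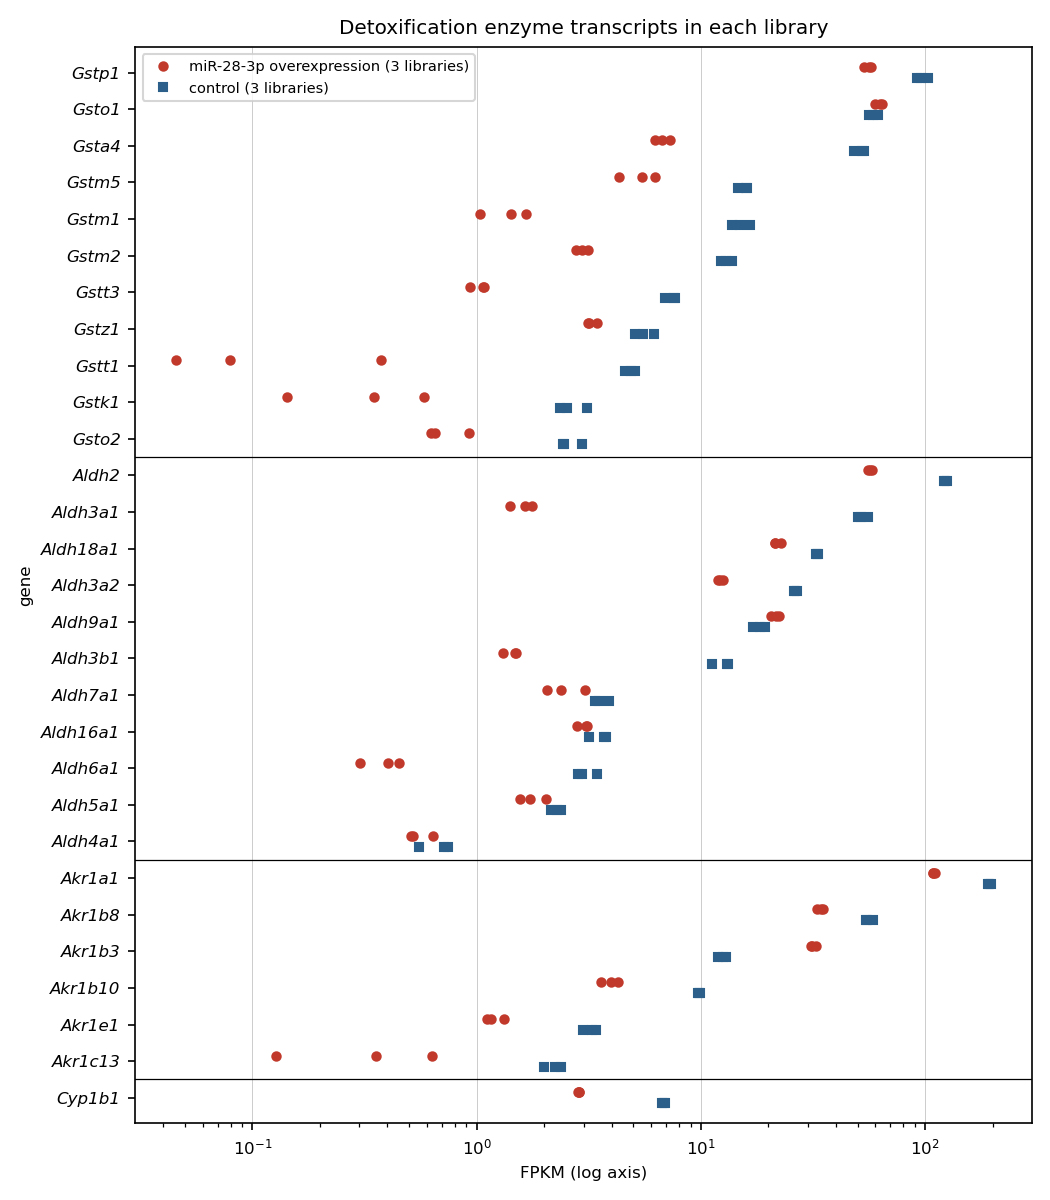
FPKM (log axis) of the 29 members with a group mean of at least 2 CPM, one point per library, overexpression above control in each row, families separated by lines. The overexpression points lie left of their controls in most rows, furthest for Aldh3a1, and right of them for Akr1b3, at a mean of 31.6 against 12.4.

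Aldehyde dehydrogenases oxidise aldehydes to acids, and 9 of 13 tested genes fell and 1, Aldh9a1, rose except with upper quartile scaling, with a median log2 fold change of -0.50. Over all tested genes 43.9% were lower and 42.1% higher. The largest fall of any tested member was in Aldh3a1, a cytosolic enzyme of medium-chain and aromatic aldehydes that is best known from the cornea (ENSMUSG00000019102, chromosome 11, 61207537 to 61218421). It had 3.53, 3.3 and 2.84 CPM with overexpression, against 94.4, 105 and 97.3 CPM in the controls. Every overexpression library was low, and the fall was 30.7-fold (log2 fold change -4.94 ± 0.09, SE, edgeR adjusted p = 3.07e-50). Its neighbour Aldh3a2, the fatty aldehyde dehydrogenase whose human counterpart is mutated in the skin disorder Sjögren-Larsson syndrome, had 69, 72.8 and 71.1 CPM with overexpression and 141, 143 and 145 CPM in the controls, a 2.01-fold fall. Aldh3b1, which also acts on aldehydes from lipid peroxidation, had 3.17, 2.77 and 3.16 CPM with overexpression and 22, 26 and 26.3 CPM in the controls. That is an 8.15-fold fall without overlap (edgeR adjusted p = 3.63e-30). Aldh3b2 and Aldh3b3 had 1 count each, in the controls.

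Aldh2, the mitochondrial enzyme that clears acetaldehyde and the most abundant dehydrogenase (ENSMUSG00000029455, chromosome 5, 121566027 to 121593824), had 300, 308 and 294 CPM with overexpression, against 601, 604 and 619 CPM in the controls. The spread within each group was small beside the 2.02-fold fall (log2 fold change -1.02 ± 0.02, SE, edgeR adjusted p = 3.45e-43). Among the genes of amino acid and GABA breakdown, Aldh6a1, Aldh7a1 and Aldh5a1 were called lower and Aldh4a1 was not called. Aldh6a1, which acts in valine and thymine breakdown, had 1.8, 2.71 and 2.4 CPM with overexpression and 16.4, 19.4 and 15.8 CPM in the controls, a 7.40-fold fall without overlap. Of its exonic bases 18.6% are also exonic in Bbof1 on the other strand, and the labels used here do not say whether the counting used strand. Aldh7a1, of lysine breakdown, had 16.2, 12.7 and 11.1 CPM with overexpression and 19.5, 17.7 and 16.9 CPM in the controls, a 1.36-fold fall with groups just apart (edgeR adjusted p = 0.000174). Aldh5a1, which clears succinic semialdehyde made from GABA, had 9.08, 11.9 and 10.1 CPM with overexpression and 12.4, 13.1 and 11.7 CPM in the controls. These groups overlapped, and its call (log2 fold change -0.26, edgeR adjusted p = 0.0398) was lost in DESeq2 (adjusted p = 0.0923), without the filter (edgeR adjusted p = 0.0701) and on leaving out overexpression library 1 or 3 or control library 1 or 2 (edgeR adjusted p = 0.0735 to 0.211). Aldh4a1, which acts in proline breakdown, had 3.24, 2.64 and 2.59 CPM with overexpression and 3.39, 2.64 and 3.55 CPM in the controls and was not called (edgeR adjusted p = 0.453). The gene model Gm21969 shares 32.5% of its exonic bases on the same strand.

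Aldh18a1, which makes the precursor of proline rather than clearing aldehydes, had 95.5, 90.3 and 90.3 CPM with overexpression and 131, 128 and 130 CPM in the controls, a 1.41-fold fall without overlap. Aldh16a1 had 18, 17.9 and 16.4 CPM with overexpression and 17.3, 20.2 and 20.6 CPM in the controls, which overlapped (log2 fold change -0.15, edgeR adjusted p = 0.127). Aldh1l2, a mitochondrial folate enzyme, averaged 0.662 CPM with overexpression and 0.598 CPM in the controls and was not called (edgeR adjusted p = 0.765). The 1 dehydrogenase that rose was Aldh9a1, which acts in carnitine synthesis (ENSMUSG00000026687, chromosome 1, 167349991 to 167368532). It had 71.9, 75.7 and 78.3 CPM with overexpression, against 63, 60 and 56 CPM in the controls. The groups did not overlap, with a log2 fold change of 0.34 ± 0.05 (SE, edgeR adjusted p = 3.2e-08) that stood at 0.11 and was not called with upper quartile scaling (edgeR adjusted p = 0.0508).

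The retinaldehyde dehydrogenases, which make retinoic acid, were at low counts. Aldh1a1 averaged 0.523 ± 0.334 CPM with overexpression and 1.94 ± 0.307 CPM in the controls (SD, n = 3 each). Its log2 fold change was -1.90 (edgeR adjusted p = 1.81e-05), and only the controls carried it past the filter. Aldh1a2 had 0 counts with overexpression and 16 in the controls, at least 5.45-fold lower by the same limit, with 11 of the 16 in control replicate 1. Aldh1a3 had 2 counts with overexpression and 7 in the controls, and the related Aldh1a7 had 5 with overexpression and 12 in the controls. Of these retinaldehyde genes only Aldh1a1 was tested. Aldh1b1, a mitochondrial relative, had 11 counts with overexpression and 47 in the controls. Aldh8a1 had 1 count with overexpression and 2 in the controls, and Aldh1l1 had none in any library.

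Aldo-keto reductases use NADPH to reduce aldehydes and ketones, and 5 of 6 tested genes fell (4 with the gene length offset described below) and 1 rose, with a median log2 fold change of -0.97. Over all tested genes 43.9% were lower and 42.1% higher. Akr1b3, the mouse aldose reductase, which turns glucose into sorbitol, had the largest rise of any tested member (ENSMUSG00000001642, chromosome 6, 34302434 to 34317478). It had 269, 282 and 269 CPM with overexpression, against 96, 102 and 105 CPM in the controls. The groups were far apart at 2.71-fold (log2 fold change 1.44 ± 0.03, SE, edgeR adjusted p = 7.02e-44). Of its stretches of read length 8.56% recur in 4 gene models. Its relatives in the same stretch of chromosome 6 were lower, Akr1b8 not with the length offset. Akr1b8 had 51.2, 53 and 54.2 CPM with overexpression and 78.4, 80.2 and 84.9 CPM in the controls, a 1.54-fold fall (log2 fold change -0.62, edgeR adjusted p = 3.88e-17). With the length offset it stood at -0.00 and was not called (edgeR adjusted p = 0.933), nor was it against a 1.5-fold minimum (edgeR adjusted p = 0.18). Akr1b10 had 13.1, 14.5 and 15.7 CPM with overexpression and 33.3, 33.4 and 33.8 CPM in the controls, a 2.32-fold fall. Neither pair of groups overlapped. Akr1b7 had 6 counts with overexpression, 5 of them in replicate 3, and 18 in the controls.

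Akr1a1, the general aldehyde reductase (ENSMUSG00000028692, chromosome 4, 116636510 to 116651680), had 316, 307 and 309 CPM with overexpression, against 509, 507 and 526 CPM in the controls. It was the most abundant member in FPKM in both groups and fell 1.66-fold (log2 fold change -0.73 ± 0.02, SE, edgeR adjusted p = 2e-35). Akr1e1 had 4.97, 4.35 and 4.17 CPM with overexpression and 12, 10.5 and 11.6 CPM in the controls, a 2.53-fold fall without overlap. The Akr1c genes, many of which act on steroids and prostaglandins, were scarce. Akr1c13 had 0.937, 0.528 and 0.189 CPM with overexpression and 2.76, 3.1 and 3.3 CPM in the controls, a 5.62-fold fall (edgeR adjusted p = 5.47e-09). Only the controls carried Akr1c13 past the filter. It shares 5.6% of its stretches of read length with Akr1c12, which had 11 counts with overexpression and 6 in the controls. Akr1c14 had 14 counts with overexpression and 18 in the controls. Akr1c6, Akr1c18, Akr1c19, Akr1c20, Akr1c21 and the bile acid reductase gene Akr1d1 had none in any library, and Akr1cl had 1 count, with overexpression.

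Of the Cyp1 names only Cyp1b1, an AhR target that oxidises polycyclic hydrocarbons and oestrogens, was tested (ENSMUSG00000024087, chromosome 17, 79701537 to 79715061). It had 17, 17.3 and 17.2 CPM with overexpression, against 38.7, 39 and 38.1 CPM in the controls. Replicates were nearly equal, and the fall was 2.25-fold (log2 fold change -1.17 ± 0.08, SE, edgeR adjusted p = 2.15e-21). Cyp1a1, the classical AhR target, had 2 counts with overexpression and 11 in the controls, and Cyp1a2 none. The rule also takes in 5 genes of steroid hormone synthesis. Cyp11a1 had 1 count, in the controls, Cyp17a1 had 1 in each group, and Cyp11b1, Cyp11b2 and the aromatase gene Cyp19a1 had none. All 9 Ugt1a genes, which attach glucuronic acid, had 0 counts in all 6 libraries. They are built from separate first exons joined to common later exons, and 50.3% to 60.6% of the exonic bases of each are shared with the others on the same strand. The labels used here do not say how shared reads were counted, so these zeros do not measure the expression of the locus.

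Across the 20 members with counts that were not tested, mean CPM was lower with overexpression in 16 and higher in 4, and no library held more than 22 counts of any of them. In 6 of the 20 the direction rests on 3 counts or fewer over all libraries. No such count of directions was made for all untested genes. When the filter was left out, 5 of the 20 were called lower by edgeR (Aldh1a2, Aldh1b1, Gsta3, Gstm6 and Gstm7) and 1 higher (Gsta1, edgeR adjusted p = 0.0435). That fit called 5533 genes lower and 5146 higher among the 15710 genes with a count.

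Over the whole table the fold change varied with gene length, and its part in the results above was not tested beyond the offset given here. Tested genes were divided by length into 5 bins of equal size. In the shortest bin, up to 2585 bases, the median log2 fold change was -0.54 for all genes and -2.31 for the 14 members there. In the longest bin, from 7725 bases, it was 0.47, and the 1 member there, Akr1b3, stood at 1.44. In the 3 bins between, medians over all genes were -0.27, 0.00 and 0.17, and those of the 4, 8 and 6 members were -0.97, -0.86 and -0.63. With a per-library length trend as an offset in edgeR, 27 members were lower and 3 higher, with a median of -1.10 against 0.01 over all genes. Akr1b8 was then not called, Aldh16a1 was called lower (edgeR adjusted p = 0.0148), and Gstp1 and Akr1a1 stood at -0.10 and -0.38. Gstm5 stood at -0.78, Gsta4 at -2.17, Gstm1 at -2.73, Gstk1 at -2.13, Gstt1 at -4.11 and Akr1c13 at -1.87, all still called, while Gsto1 stood at 0.68 and Aldh9a1 at 0.56.

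**Figure D4:**
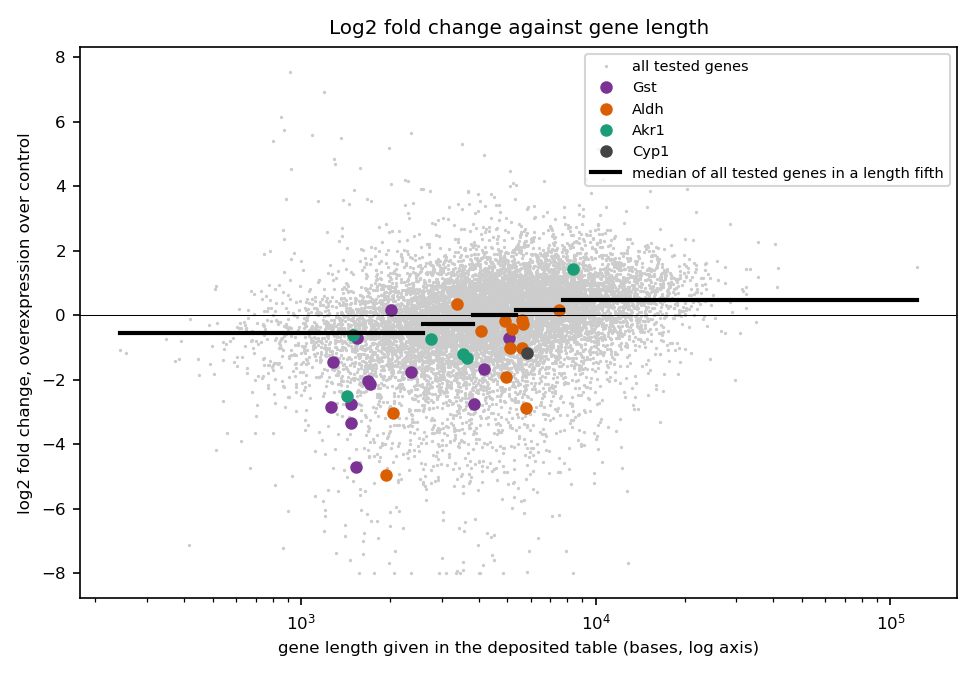
Log2 fold change (overexpression over control) against gene length (log axis), all tested genes in grey, members in the colours of their families, and the median of all genes in each of 5 length bins as a bar; values beyond 8 are drawn at 8. The bars climb from -0.54 to 0.47, and in the 4 shorter bins most members lie below them.

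The 3' UTRs annotated in GENCODE M21 were searched for the 7 bases that pair with each seed. The site of miR-28-3p, ATCTAGT, was found in 0 of the 33 tested members and in 785 of 11679 tested genes with an annotated 3' UTR, or 6.72%. Over those 11679 genes the median log2 fold change was 0.33 with the site and -0.05 without it. Genes with and without the site were not matched for length, with which the fold change varied as above. The part of the site in this difference was not tested. No match says only that these letters are not in the annotated window. Among the untested members the site was found in 2, both practically without reads. Aldh3b3 had 1 count in all and Cyp1a2 none. Their sites, with the pairing bases in capitals, are at chr19:3970197-3970225, plus strand, and chr9:57676983-57677011, minus strand (GRCm38).
Aldh3b3 site: agtttgggcagATCTAGTgactaaggggg
Cyp1a2 site: acctcatgctaATCTAGTttttgactcaa
The site of miR-28-5p, AGCTCCT, was found in 5 tested members (Akr1e1, Aldh1l2, Aldh2, Aldh4a1 and Aldh5a1) and in 17.8% of tested genes with an annotated 3' UTR. Of these 5, Akr1e1, Aldh2 and Aldh5a1 were lower and the other 2 were not called.

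Promoters of 250 bases before to 50 after the start, from RefSeq (GRCm38.p6), were matched for 62 members, 26 of them tested, in 75 promoters. On both strands they were searched for TGACNNNGC, the core of the antioxidant response element bound by NRF2, and GCGTG, the core bound by AhR. The first was in 7 of the 75 promoters (9.33%) and in 12.4% of all 32851 promoters, and the second in 20 (26.7%) and 32.4%. Among tested members TGACNNNGC was found in Gstm5, which fell, and in Aldh9a1, which rose except with upper quartile scaling, where it was not called. These promoters were chosen after the matches were seen and are shown because they hold the same element and belong to members of opposite direction, and that of Cyp1b1 because it is a well known AhR target. Capitals mark both motifs, a GCGTG on the other strand reading CACGC, and in Gstm5 one CACGC overlaps the end of the longer motif. The positions are chr3:107895604-107895903 on the plus strand for Gstm5, chr1:167349741-167350040 on the plus strand for Aldh9a1 and chr17:79715012-79715311 on the minus strand for Cyp1b1.
Gstm5: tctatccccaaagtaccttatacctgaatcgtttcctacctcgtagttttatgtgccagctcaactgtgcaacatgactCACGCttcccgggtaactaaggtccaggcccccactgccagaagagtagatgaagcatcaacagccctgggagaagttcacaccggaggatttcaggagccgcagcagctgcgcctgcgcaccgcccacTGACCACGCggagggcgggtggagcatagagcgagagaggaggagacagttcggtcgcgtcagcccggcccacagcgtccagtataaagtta
Aldh9a1: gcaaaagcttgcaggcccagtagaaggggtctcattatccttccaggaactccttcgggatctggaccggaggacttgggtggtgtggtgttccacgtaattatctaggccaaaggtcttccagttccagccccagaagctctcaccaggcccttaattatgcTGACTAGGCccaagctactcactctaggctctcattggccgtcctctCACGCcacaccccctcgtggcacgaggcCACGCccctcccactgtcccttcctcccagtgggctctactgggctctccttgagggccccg
Cyp1b1: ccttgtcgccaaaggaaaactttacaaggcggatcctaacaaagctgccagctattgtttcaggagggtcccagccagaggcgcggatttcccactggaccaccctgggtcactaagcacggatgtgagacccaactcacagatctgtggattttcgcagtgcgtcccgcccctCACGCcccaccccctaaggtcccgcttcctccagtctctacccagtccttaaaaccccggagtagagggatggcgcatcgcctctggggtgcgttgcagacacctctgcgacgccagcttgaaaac
TGACNNNGC begins at base -42 from the start in Gstm5 and at -87 in Aldh9a1, and CACGC at -76 in Cyp1b1. A match is a description of letters and not a bound site.

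Other detoxification genes, from lists outside the name rule, were counted in the same test. Of 22 tested genes of conjugation and reduction outside the list above, 18 fell and 2 rose (median log2 fold change -1.21). Among all tested genes 43.9% were lower and 42.1% higher. With the length offset 16 of the 22 were lower and 3 higher, with a median of -0.72. Cbr2, a carbonyl reductase, had 11.2, 11.7 and 10.5 CPM with overexpression and 147, 143 and 136 CPM in the controls, a 12.8-fold fall (edgeR adjusted p = 1.11e-51). Ephx1, the microsomal epoxide hydrolase, had 1.01, 0.99 and 1.33 CPM with overexpression and 29.5, 31 and 29.3 CPM in the controls, a 26.7-fold fall. Mgst1, a membrane-bound glutathione transferase, and Ptgr1, which reduces unsaturated aldehydes and leukotrienes, fell 8.21-fold and 3.69-fold. Of 13 other P450 genes and their electron donors, 11 fell and 2 rose (median -0.85). With the length offset 10 were lower and 2 higher (median -0.67). Por, the reductase that feeds electrons to P450 enzymes, averaged 149 CPM with overexpression and 281 CPM in the controls, and Cyb5r3, a reductase partner, and Cyp39a1, an oxysterol hydroxylase, fell 1.55-fold and 3.23-fold, while the mitochondrial cytochrome gene Cyb5b rose 2.5-fold.

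Of 12 tested sensors and regulators 7 fell and 3 rose (median log2 fold change -0.27), beside 43.9% lower and 42.1% higher among all tested genes. Nfe2l2, which encodes NRF2, had 115, 113 and 112 CPM with overexpression and 222, 213 and 216 CPM in the controls, a 1.92-fold fall (edgeR adjusted p = 1.87e-34). Its relative Nfe2l1 fell 1.81-fold, and the retinoic acid receptor genes Rara and Rarg 2.7-fold and 1.87-fold. Ahr, named here after its value was seen, averaged 15.2 ± 1.11 CPM with overexpression and 39.9 ± 1.17 CPM in the controls (SD, n = 3 each). The other genes of the AhR pathway in this list did not fall with it. Tiparp rose 1.34-fold (edgeR adjusted p = 1.4e-16) and Arnt was not called (edgeR adjusted p = 0.124). Ahrr, not tested, had 13 counts with overexpression and 7 in the controls. With upper quartile scaling 10 of the 12 were lower and 2 higher, and with DESeq2 size factors 6 were lower and 3 higher.

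Genes of glutathione supply and export were called in both directions, as were all tested genes, 42.1% higher and 43.9% lower. Of 12 tested genes of glutathione and NADPH supply, 7 rose and 5 fell (median log2 fold change 0.22, or -0.01 with 5 higher and 5 lower under upper quartile scaling). Gclc and Gclm, the catalytic and modifier subunits of the rate-limiting enzyme of glutathione synthesis, rose. Gclc had 75.2, 82.9 and 78 CPM with overexpression and 25.4, 23.5 and 23.2 CPM in the controls, a 3.27-fold rise (edgeR adjusted p = 3.01e-34). Gclm rose 2.55-fold and Pgd, of the pentose phosphate pathway, 2.1-fold. Slc7a11, the cystine importer, had 11.2, 11.3 and 11.7 CPM with overexpression and 83.1, 89.1 and 85.1 CPM in the controls, a 7.5-fold fall (edgeR adjusted p = 1.05e-43). Of 7 tested efflux pumps 4 rose and 1 fell (median 0.60), with 4 higher and 3 lower under upper quartile scaling and 4 higher and 2 lower with the length offset. Abcc1, Abcb1b and Abcg2 rose 2.4-fold, 3.3-fold and 2.99-fold. Abcc3, which exports glucuronides and bile acids, had 1.3, 1.52 and 1.52 CPM with overexpression and 77.3, 75.6 and 78.6 CPM in the controls, a 53-fold fall (edgeR adjusted p = 2.18e-49).

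**Figure D5:**
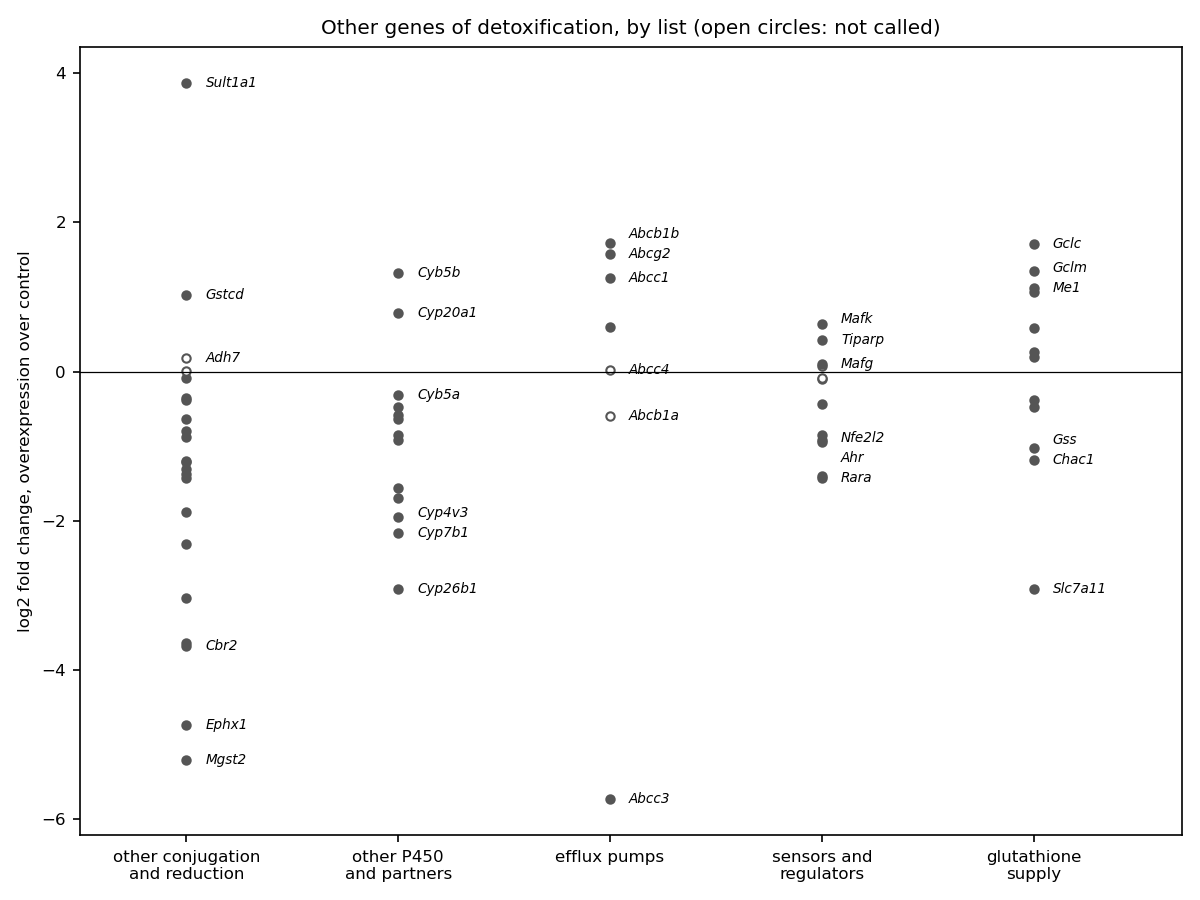
Log2 fold change (overexpression over control) of the tested genes in 5 lists of other detoxification genes, one point per gene, with the 3 lowest and 3 highest of each list named. Conjugation and P450 genes lie mostly below 0, while 4 of the 7 efflux pumps and 7 of the 12 supply genes were called higher. Under upper quartile scaling 5 supply genes were higher and 5 lower. Among all tested genes 42.1% were called higher and 43.9% lower.

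The authors' deposited table of fold changes gives an adjusted p under 0.05 for 29 of the 33 tested members, and edgeR called all 29. Its fold changes are named B over A with no key to the groups, and have the sign of the edgeR values for all 29. The one member called by edgeR alone was Aldh5a1, with an adjusted p of 0.13 in the authors' deposited table.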

How the data were processed

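Polyadenylated RNA of 3 overexpression and 3 control libraries was sequenced to reads of 150 bases. The authors deposited whole-number counts per gene, FPKM values, a table of fold changes on the log2 scale with p-values, and the percent of reads kept and of bases at Q30 per library. HISAT2, HTSeq and DESeq are named in the submitters' processing notes, with the build mm9, but all 76 members have the coordinates of GENCODE M21 (GRCm38), which were used here. FPKM values per the file headers were equal to the count divided by gene length and the library's counted reads. Counts were tested on all genes with edgeR 4.0.16 (R 4.3.3), using filterByExpr with a minimum count of 10, TMM factors and the robust quasi-likelihood test. A threshold of 0.05 was applied to the Benjamini-Hochberg adjusted p over 11809 genes. Totals of 14309898 to 16383374 counts set the precision, and the biological coefficient of variation was 2.93%. Alternatives used limma 3.58.1, DESeq2 1.42.0, other scalings and filters, a length offset and libraries left out. Members, gene lists and the naming rule were chosen with earlier results of these data known. Tested members averaging at least 2 CPM in a group were given with all libraries, the others with means or total counts, and of each other list up to 4 genes with the smallest p were named. Ahr, Tiparp, Arnt and Ahrr were named besides these. Replicates of a group differed by more than counting noise (chi-square per degree of freedom 1.87 to 2.64), so none was a copy of another's counts. Separate cultures and separate preparations of one culture cannot be told apart by this.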

Additional observations from a re-analysis of the deposited data

How the results depend on the processing

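The count of members called lower was between 22 (against a 1.5-fold minimum) and 31 (with no filter, 53 members tested) under every alternative run, and the number called higher was 1 with upper quartile scaling and 1 against a 1.5-fold minimum, in place of 3. Over all genes 3185 were lower and 2762 higher against the 1.5-fold minimum. Gsto1 turned to -0.06 with upper quartile scaling, and Aldh5a1 and Aldh7a1 stood at -0.49 and -0.67. Aldh1l2, never called, turned to -0.07 with upper quartile scaling and to -0.14 with the length offset. Leaving out a library moved Aldh1l2 between -0.20 and 0.37, members called lower between 27 and 28, and all genes called between 5104 and 5161 lower and between 4912 and 4957 higher, with 3 members higher each time. The replicate block gave 27 members lower and 3 higher, with correlations of -0.01, 0.03 and 0.00 between the deviations of same-numbered libraries. No shared part was seen in these values, which cannot tell whether same-numbered libraries were cultured or prepared together. Of 495 comparisons of single members with an alternative, 468 kept direction and side of the threshold, 17 lost their call, 5 gained one and 5 changed sign. Aldh16a1 was called lower with upper quartile scaling, on FPKM, with the length offset and without control replicate 1. The 1.5-fold minimum lost Akr1b8, Aldh18a1, Aldh5a1, Aldh7a1, Aldh9a1, Gsto1 and Gstz1. On log2(FPKM + 1) members of low level moved towards 0 by construction, Gstt1 to -2.34 and Gstm4 to -0.64. The cause of the other changes was not tested. Depth limits the 20 members with counts that were not tested and the 23 without any. For the 9 Ugt1a genes among those 23, the shared exons described above limit the zeros as well.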
